A study of Homo sapiens with 18 samples.

Results

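Gene deserts are long stretches of the genome without a protein-coding gene. Here they were taken as the intervals of 500 kb or more between neighbouring protein-coding genes on chromosomes 1 to 22 of hg19 that hold no assembly gap of 50 kb or more. The rule found 584 deserts among 14802 intervals between genes, and their 691 Mb of known sequence made up 25.8% of the known autosomal sequence. Linker histones H1.2 and H1.5 had been mapped in undifferentiated HL-60/S4 cells, a human myeloid leukaemia line, with no treatment of the cells. All material came from this line, so the results describe a single tumour-derived genome. The 18 samples were 3 replicates of each protocol, xChIP and xxChIP, with each antibody, and 6 Input samples that were not analysed here. In xChIP the fixed cells were sonicated before the antibody was added. In xxChIP the antibody was added to permeabilized, fixed cells, was then crosslinked in place by another fixation, and sonication came last. Both antibodies were rabbit polyclonals raised against the N-terminal part of the protein, so an xxChIP peak reports an epitope that the antibody could reach in chromatin that had not been broken up.

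The files hold 1 list of peak positions for each of the 4 combinations, made by merging the peaks of the 3 replicates. A peak is a region that the peak caller found enriched, and the measure used throughout is the covered share, the percentage of the known bases of a desert that lie under peaks. The lists carry no height, read number or replicate, so sequencing depth is unknown, and neither a spread between replicates nor a test between the lists could be computed. Every difference below is therefore a description of these 4 lists.

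H1 binds the DNA where it enters and leaves the nucleosome and helps arrays of nucleosomes to fold. Gene deserts are commonly AT-rich, late in replication, and packed at the nuclear lamina or around the nucleolus, although many also carry distant enhancers of the developmental genes beside them. The question asked of them is what H1 epitope exposure looks like where protein-coding genes are absent. These deserts fitted that outline in base composition, with a GC content of 37.7% against 42.1% in the rest of the autosomes. Their median length was 907 kb, and single deserts measured between 500.1 and 4801 kb. They were not free of transcription units, since the annotation placed 3185 starts of long non-coding RNA (lncRNA) genes in them and only 20 deserts held no such start.

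The sequence under a long peak that lay wholly in a desert, in xChIP H1.5 and in both xxChIP lists, is shown as an example of the DNA covered. The xxChIP H1.2 example is not the longest of its list, whose longest peak centred in a desert measured 307527 bp. The middle 200 bases of each are given on the plus strand of hg19, in lower case with CpG dinucleotides in capitals. The xChIP H1.5 peak lay between TMC3 and MEX3B and spanned 88851 bp at chr15:81940856-82029706, with a GC content of 38.7%. The xxChIP H1.2 peak lay between NXPH1 and NDUFA4 and spanned 126564 bp at chr7:9930992-10057555, and it was the most AT-rich of the 3, with a GC content of 34.3%. The xxChIP H1.5 peak lay between TRIML1 and FRG1 near the end of 4q and spanned 173580 bp at chr4:190523079-190696658, with a GC content of 42%.
xChIP H1.5, chr15:81985181-81985380: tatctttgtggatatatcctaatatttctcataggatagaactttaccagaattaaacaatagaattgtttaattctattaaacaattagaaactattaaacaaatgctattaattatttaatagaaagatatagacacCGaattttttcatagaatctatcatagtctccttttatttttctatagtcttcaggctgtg
xxChIP H1.2, chr7:9994174-9994373: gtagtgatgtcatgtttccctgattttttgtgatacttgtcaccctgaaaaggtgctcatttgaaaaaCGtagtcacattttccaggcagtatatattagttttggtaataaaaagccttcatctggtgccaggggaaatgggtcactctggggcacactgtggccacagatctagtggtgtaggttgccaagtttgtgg
xxChIP H1.5, chr4:190609769-190609968: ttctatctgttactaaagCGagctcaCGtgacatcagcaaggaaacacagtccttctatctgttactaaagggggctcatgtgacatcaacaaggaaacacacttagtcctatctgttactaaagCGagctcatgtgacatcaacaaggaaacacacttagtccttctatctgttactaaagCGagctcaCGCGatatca
These bases are a small sample of their peaks. The GC content was 24.5% in the xChIP H1.5 stretch and 43.5% in that of xxChIP H1.2, both unlike their peaks. In the xxChIP H1.5 stretch it was 42.5%, close to that of its peak. The first and the second stretch held 1 CpG each. The third, which is visibly repetitive, held 6, and since only uniquely placed reads were kept, peaks in repeated sequence are less certain than others. The xxChIP H1.2 peak was covered over 57.2% of its length by xxChIP H1.5 peaks but over only 7.22% by xChIP H1.2 peaks. In the xChIP H1.5 peak, xChIP H1.2 covered 37.7% and xxChIP H1.2 covered 9.82%, so in both regions the lists of one protocol shared more with each other than with the other protocol.

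In gene deserts, xxChIP peaks covered more of the sequence than xChIP peaks did. Peaks covered 27.6% of all desert bases in xxChIP H1.2 and 23.8% in xxChIP H1.5. The shares were lower under xChIP, at 15.5% for H1.2 and 15.2% for H1.5. Over all autosomes the order was another one, with 27.0% in xChIP H1.2, 16.7% in xChIP H1.5, 20.5% in xxChIP H1.2 and 17.5% in xxChIP H1.5. The deserts thus had 0.572 times the autosomal share in xChIP H1.2 and 0.911 times in xChIP H1.5, but 1.35 and 1.36 times in xxChIP H1.2 and xxChIP H1.5. Put as a share of each list, 14.7% of the xChIP H1.2 peak bases lay in deserts, while xChIP H1.5 had 23.5% of its bases there, xxChIP H1.2 had 34.7% and xxChIP H1.5 had 35.1%. Inside the spans of protein-coding genes, xChIP H1.2 covered 28.7% and xxChIP H1.2 covered 16.7%, so the protocols stood in opposite order there.

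Single deserts followed the pooled values. The median desert was covered over 15.0% of its bases in xChIP H1.2 (quartiles 12.1% and 19.3%, range 5.27% to 58.5%) and over 15.0% in xChIP H1.5 (quartiles 11.9% and 18%, range 3.95% to 38.9%). In xxChIP H1.2 the median was 26.4% (quartiles 20.0% and 32.3%, range 5.60% to 58.0%), and in xxChIP H1.5 it was 23% (quartiles 17.3% and 28.1%, range 4.40% to 50.5%). No desert was empty in any list, and the interquartile ranges of the protocols did not overlap for H1.2 and overlapped slightly for H1.5. Windows of 500 kb without desert sequence had medians of 26.5%, 15.7%, 16.1% and 13.6% in the same order of lists. Of the 584 deserts, 545, or 93.3%, lay below the autosomal share in xChIP H1.2, against 64.5% of all windows of 500 kb, and 428, or 73.3%, lay above it in xxChIP H1.2, against 45.1%.

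**Figure D1:**
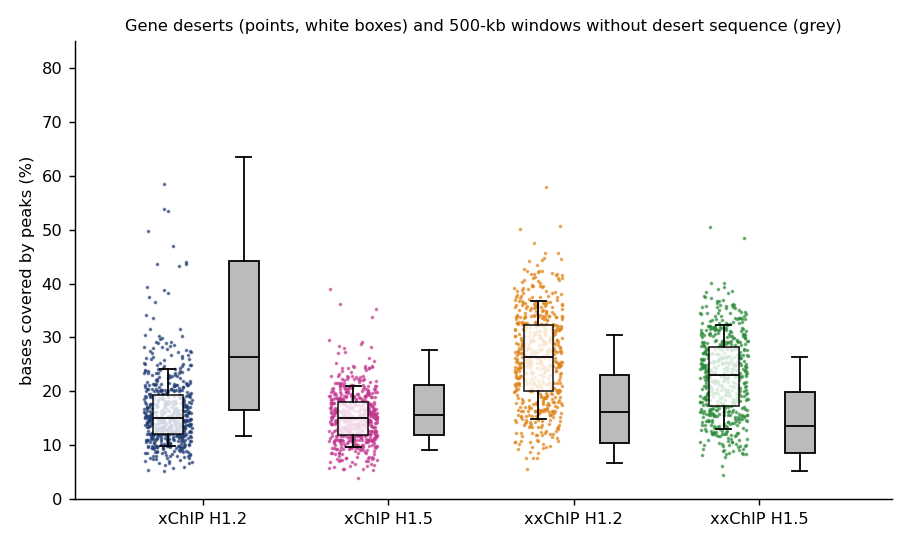
Share of bases covered by peaks (%) for each of the 4 lists. Points are the 584 gene deserts, white boxes their quartiles and grey boxes those of 3465 windows of 500 kb without desert sequence, with the median as a line and whiskers from the tenth to the ninetieth percentile. The deserts have a median of 15.0% against 26.5% for the windows in xChIP H1.2, and of 26.4% against 16.1% in xxChIP H1.2.

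The xxChIP share exceeded the xChIP share in 463 deserts for H1.2, or 79.3%, and in 488 for H1.5, or 83.6%, where 47.9% and 54.0% of all windows of 500 kb had the higher share in xxChIP. It was higher for both isotypes in 430 deserts and lower for both in 63. The share of windows for these joint counts was not computed, so their distance from the background is unknown. A fold of 1.5, with 1 percentage point added to each share, was passed by 330 deserts in which xxChIP H1.2 was higher, or 56.5%, where the background over 5339 autosomal windows of 500 kb was 32.2%. Only 39 deserts passed it in the other direction, or 6.68%, against a background of 38.7%. For H1.5, 290 deserts passed with xxChIP higher, or 49.7%, against 29.8% of windows, and 24 with xChIP higher, or 4.11%, against 26% of windows. The median fold of xxChIP over xChIP was 1.63 for H1.2, where the windows had 0.948, and 1.49 for H1.5.

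The isotypes differed less than the protocols. xChIP H1.2 exceeded xChIP H1.5 by the same fold in 81 deserts, or 13.9%, against 42.6% of windows, and fell short by it in 19 deserts, against 5.77% of windows. The median fold of H1.2 over H1.5 in xChIP was 1.02 in deserts and 1.34 in windows, so the excess of xChIP H1.2 over xChIP H1.5 was smaller in gene deserts than across the autosomes. Its direction depended on how desert sequence was cut out: of the 797 windows of 500 kb lying inside deserts, 50 passed the fold with H1.2 higher and 133 with H1.2 lower, with a median fold of 0.909, and with lncRNA genes also bounding the deserts the counts were 12 and 30. In xxChIP, H1.2 was the higher in 467 deserts, or 79.97%, near the 72.8% of all windows. Only 28 of these deserts passed the fold, or 4.79%, against 17% of windows, and 4 passed it in the other direction, against 1.95%. Without peaks of 20 kb or more these counts were 11 and 13, so the direction was lost. Across the 584 deserts the shares of the xxChIP lists had a Spearman rho of 0.84, the shares of the xChIP lists one of 0.515, and xChIP H1.2 and xxChIP H1.2 one of -0.298. Neighbouring deserts share a chromosome and a base composition, so these coefficients are descriptive only.

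Base by base, 47.4% of the desert sequence lay under no peak of any list, close to the 45.4% elsewhere. Peaks of xxChIP alone covered 28.5% of the desert sequence and peaks of xChIP alone 14.7%, while elsewhere these shares were 16.5% and 28.8%. Both protocols covered the same base in 9.44% of the desert sequence and in 9.31% elsewhere. The protocols therefore exchanged places between deserts and the rest, with nearly the same share left bare and nearly the same share held in common. Bases under both isotypes in xxChIP and under no xChIP peak made up 10.1% of the deserts and 4.83% of the rest. Within deserts, 48.9% of the xxChIP H1.2 peak bases were also in xxChIP H1.5 peaks, or 56.7% of the latter. The xChIP lists shared 42% of the H1.2 and 42.8% of the H1.5 peak bases, whereas 25.7% of the xChIP H1.2 peak bases were in xxChIP H1.2 peaks.

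Number and length of peaks moved with the covered share. Deserts held 43.5 peaks per Mb in xChIP H1.2 against 53.5 elsewhere, and 55.6 per Mb in xxChIP H1.2 against 49.3 elsewhere. The median peak in deserts was 2108 bp long in xChIP H1.2 and 2659 bp in xxChIP H1.2, while elsewhere these lengths were 2422 and 2022 bp. Peaks of 20 kb or more held 12.3% of the xChIP H1.2 peak bases in deserts and 41% elsewhere, but 23.2% and 15.0% of the xxChIP H1.2 peak bases. Long H1.2 peaks were thus mostly outside deserts under xChIP, and took a larger part of the peak bases inside deserts under xxChIP. For xxChIP H1.5 the long peaks held 13.1% in deserts and 9.23% elsewhere.

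Coverage also followed the length of the interval between genes. Intervals shorter than 10 kb were covered over 49.0% in xChIP H1.2 and 10.3% in xxChIP H1.2, and those of 250 to 500 kb over 23.7% and 22.9%. In deserts the order of these lists was turned around, with 17.4% and 24.8% in deserts below 1 Mb, 15.5% and 28.2% between 1 and 2 Mb, and 13.2% and 30.1% in the 71 deserts of 2 Mb or more. xChIP H1.5 stayed between 14.7% and 15.4% in these desert classes, while xxChIP H1.5 went from 21.8% to 24.9%. The limit itself was no sharp border: the 64 intervals of 450 to 500 kb were covered over 20.0% in xChIP H1.2 and 24.6% in xxChIP H1.2, and the 50 deserts of 500 to 550 kb over 19.7% and 23.4%. All 24 deserts of 3 Mb or more had the higher share in xxChIP for both isotypes.

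Base composition ordered the deserts in much the same way. In the 32 deserts with a GC content below 35%, the medians were 12.2% in xChIP H1.2, 15.8% in xChIP H1.5, 34.3% in xxChIP H1.2 and 27.1% in xxChIP H1.5, and xxChIP was higher in all 32 for both isotypes. In the 73 deserts of 42% GC or more, the medians were 18.2%, 11.1%, 20.8% and 18.4%, and xxChIP H1.2 was higher in only 37, while xxChIP H1.5 was higher in 63. Across the 584 deserts, Spearman's rho of GC content with the covered share was 0.335 in xChIP H1.2, -0.327 in xChIP H1.5, -0.417 in xxChIP H1.2 and -0.318 in xxChIP H1.5. The isotypes thus ran in opposite directions with GC content in xChIP and in the same direction in xxChIP. Long deserts were also AT-rich, with a rho of -0.452 between length and GC content, so the 2 properties overlap. Among the 81 deserts under 750 kb with 40% GC or more, the medians of xChIP H1.2 and xxChIP H1.2 were 16.7% and 19.1%. Among the 20 deserts of that length with less than 36% GC they were 12.2% and 32.6%. Between these, xChIP H1.2 reached 18.6% at 38 to 40% GC. Among deserts of 1500 kb or more, the xxChIP H1.2 medians were 32.8% below 36% GC, 24.7% at 38 to 40%, and 27.0% in the 9 deserts of 40% or more. Those of xxChIP H1.5 were 26.9%, 22.8% and 26.1%, so the fall with GC content was not steady in long deserts.

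Because deserts are AT-rich, 6315 windows of 100 kb inside deserts were set beside 19266 windows outside them within 12 bands of GC content. Without regard to GC content, the mean covered share in desert windows differed from that outside by -16.4 percentage points in xChIP H1.2, -2.08 in xChIP H1.5, 10.1 in xxChIP H1.2 and 8.97 in xxChIP H1.5. Within these bands of GC content, weighted by the desert windows, the differences were -4.05, -1.19, 3.78 and 4.75 points. Each kept its sign, and each was smaller than before. Desert windows were the higher in 12 of 12 bands in both xxChIP lists and the lower in 9 of 12 in both xChIP lists. At a GC content of 35 to 36% the xChIP H1.2 shares were alike, at 12.8% in deserts and 12.8% outside. In the band of 44 to 46%, xChIP H1.2 covered 24.3% of the desert windows against 41.9% of the others. In the band of 46% or more it covered 23.2% against 49.9%, and xxChIP H1.5 covered 21.7% against 9.44%. This last band has no upper limit, so GC content was not matched within it. Windows of 500 kb reached a GC content of 49.7% inside deserts and 61.2% where they held no desert sequence.

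**Figure D2:**
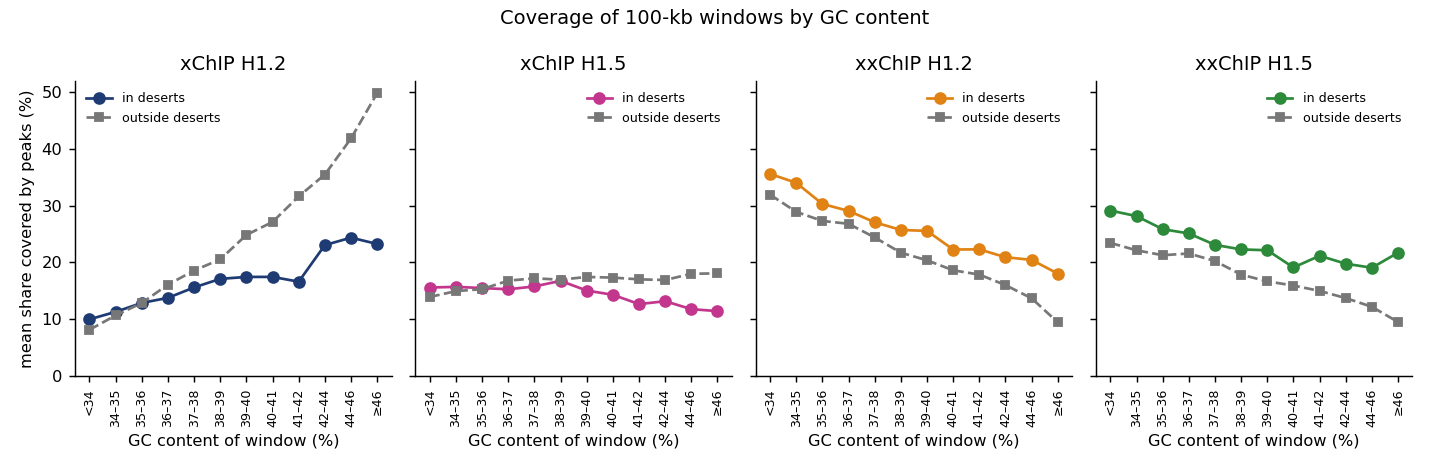
Mean share of 100-kb windows covered by peaks (%) by GC content of the window (%), for windows inside gene deserts (solid, coloured) and outside them (dashed, grey), 1 panel per list. In xChIP H1.2 the curves are alike at 12.8% for 35 to 36% GC and part to 23.2% and 49.9% at 46% GC or more. That band has no upper limit, so GC content is not matched within it. In both xxChIP lists the desert curve lies above the other in all 12 bands.

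At the finest scale, deserts were poor in CpG-rich sequence. Only 412 of their 1-kb tiles, or 0.0596%, had a GC content of at least 55% with an observed to expected CpG ratio of at least 0.65, against 18377 tiles, or 0.922%, elsewhere. These tiles were covered over 17.9% in xChIP H1.2 and 7.82% in xxChIP H1.2 in deserts, and over 38.2% and 1.38% elsewhere. Coverage by xxChIP peaks was low at CpG-rich sequence in both places, though less so in deserts. Within a desert, the bases under xChIP H1.2 peaks had a median of 2.62 percentage points more GC than the bases outside them, and were the richer in 566 of 584 deserts. This difference was 0.247 points in xChIP H1.5, -0.232 in xxChIP H1.2 and 0.204 in xxChIP H1.5, with the bases under peaks richer in 342, 232 and 321 deserts. xChIP H1.2 peaks thus lay in the GC-richer parts of AT-rich deserts, and the peaks of the other lists differed little in GC content from the sequence around them.

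The starts of lncRNA genes inside deserts had the protocol order of the deserts and not that of lncRNA starts elsewhere. Within 1 kb of a start, 31.1% of the 3185 lncRNA promoters in deserts touched an xxChIP H1.2 peak and 21.3% an xChIP H1.2 peak. For the 14885 lncRNA promoters elsewhere these shares were 16.1% and 41.8%. H1.5 differed in the same direction, with 27.8% in xxChIP and 18.9% in xChIP in deserts, and 14.6% and 21.0% elsewhere. The mean GC content of these promoters was 41.9% in deserts and 49.2% elsewhere, and its part in this difference was not tested.

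The approach to the flanking genes was marked by a dip in the xxChIP lists. In the first 5 kb of a desert next to a gene, xxChIP H1.2 covered 16.4% and xxChIP H1.5 13.3%, and from 5 to 10 kb they covered 23.7% and 18.6%. Farther in, the shares were higher still, at 27.7% and 24.2% between 200 and 500 kb and at 31.2% and 25.9% beyond 1 Mb. xChIP H1.2 was also low at the border, with 16.3% in the first 5 kb and 20.5% from 5 to 10 kb. Farther in it ran the other way, with 21.2% between 20 and 50 kb and 11.6% beyond 1 Mb. xChIP H1.5 was lowest in the first 5 kb, at 12.9%, was at 15.4% from 5 to 10 kb, and nowhere exceeded 16.4%. GC content was 40.9% in the first 5 kb and 35.2% beyond 1 Mb, and its part in these profiles was not tested.

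On the gene side of the border the first 5 kb were the least covered band of the profile except in xChIP H1.2, which was at 11.6% beyond 1 Mb into the desert. The shares were 11.7% in xChIP H1.2, 10.1% in xChIP H1.5, 10.3% in xxChIP H1.2 and 7.74% in xxChIP H1.5. The dip was deeper at gene starts than at gene ends in xxChIP H1.2, with 8.63% and 12.0% in the first 5 kb of the gene and 15.1% and 17.8% in the first 5 kb of the desert. Between 50 and 100 kb inside the flanking genes, xxChIP H1.2 covered 21.2% and xChIP H1.2 14.4%. The genes beside deserts thus had the protocol order of the deserts within their bodies.

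**Figure D3:**
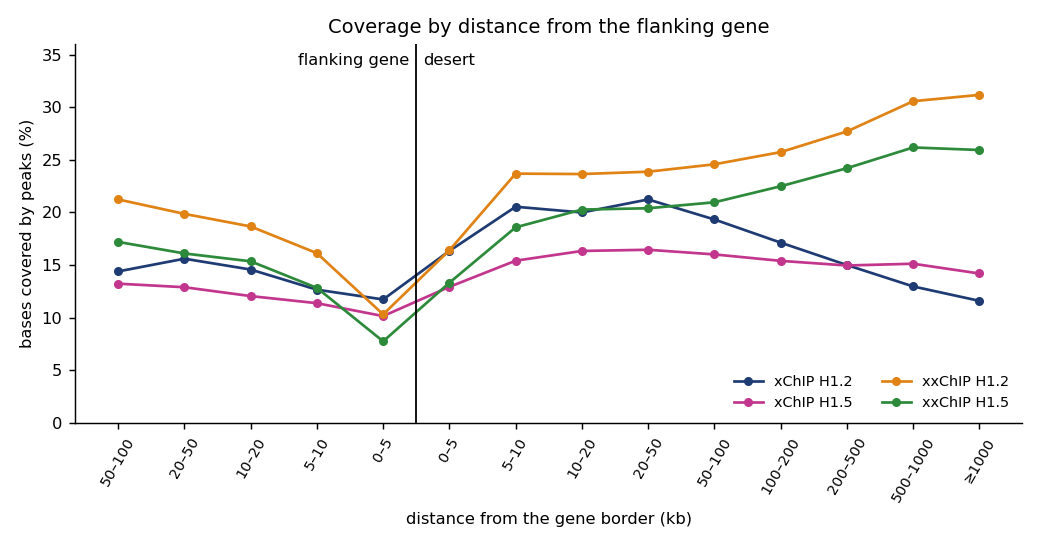
Share of bases covered by peaks (%) by distance from the border of the flanking gene (kb, in bands of unequal width), inside the gene on the left and inside the desert on the right, for the 4 lists over both sides of the 584 deserts. Both xxChIP lists are lowest in the first 5 kb of the gene (10.3% and 7.74%) and reach 31.2% and 25.9% beyond 1 Mb into the desert, where xChIP H1.2 is at 11.6%.

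Many long deserts lie beside genes for cell adhesion and axon guidance, such as cadherins, protocadherins and teneurins, which are used mostly in the nervous system. The 102 deserts next to such a gene had a median length of 1679 kb and medians of 13.0% in xChIP H1.2, 14.1% in xChIP H1.5, 29.2% in xxChIP H1.2 and 24.8% in xxChIP H1.5. xxChIP was the higher in 97 of them for H1.2 and in 95 for H1.5. The 91 deserts next to a developmental regulator, mostly transcription factors, had a median length of 823 kb and medians of 14.9%, 14.8%, 24.2% and 21.4%, with xxChIP higher in 66 and 73. The 38 deserts beside ion channels and neurotransmitter receptors stood at 15.1%, 16.2%, 27.7% and 25.4%. Only 3 deserts bordered an olfactory or taste receptor gene, and the 359 deserts on no list had medians of 15.9%, 15.1%, 25.8% and 22.5%. Deserts beside adhesion genes were thus the most covered in xxChIP H1.2 of these groups. They were also the longest and, at 36.2%, the poorest in GC.

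Among the longest 3 deserts beside developmental regulators, the one between GATA3, a transcription factor of T cells, and CELF2 (chr10:8117162-10840359) was covered over 9.87% in xChIP H1.2, 8.59% in xChIP H1.5, 22.5% in xxChIP H1.2 and 20.2% in xxChIP H1.5. The desert from VRK1 to BCL11B (chr14:97421184-99635623) had 15.5%, 10.1%, 27.0% and 27.0%, and that from FANCL to BCL11A (chr2:58468546-60677654) had 12.0%, 12.4%, 20.2% and 18.1%. BCL11A and BCL11B encode zinc finger repressors of blood and brain development. Beside channel and receptor genes, the longest deserts ran from CDC73 to KCNT2, from SORCS1 to XPNPEP1 and from GRIK2 to HACE1. The first of these, at chr1:193223946-196194908, had 41.8% in xxChIP H1.2 and 40.1% in xxChIP H1.5 against 10.2% and 15.5% in xChIP H1.2 and H1.5. The other two had 30.2% and 35.5% in xxChIP H1.2 and 13.4% and 16.1% in xChIP H1.2. The 3 deserts at olfactory and taste receptors (OR4E1 to DAD1, FOLH1 to OR4C13 and TAS2R1 to ATPSCKMT) lay between 23.4% and 27.3% in xxChIP H1.2.

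The longest desert, 4801 kb between PCDH7, a protocadherin, and ARAP2, a signalling adaptor (chr4:31148428-35949842), had a GC content of 34.8%. Peaks covered 7.95% of it in xChIP H1.2, 11.8% in xChIP H1.5, 40.4% in xxChIP H1.2 and 30.7% in xxChIP H1.5. It held 170 peaks of at most 7708 bp in xChIP H1.2 and 273 peaks of up to 68970 bp in xxChIP H1.2. All of the 10 longest deserts had the higher share in xxChIP for both isotypes. From AGA to TENM3 (chr4:178363592-183065139) xxChIP H1.2 covered 27.7% and xChIP H1.2 14.5%. From CELF4 to PIK3C3 (chr18:35145791-39535198) they covered 31.8% and 8.73%, and from OLFM4 to PRR20A (chr13:53626193-57715051) 27.5% and 14.8%. The desert between CDH9 and CDH6, both cadherins (chr5:27121258-31193792), had 30.6% and 11%. NCAM2 to MRPL39 (chr21:22915651-26957967) had 22% and 9.03%, C4orf33 to PCDH10 (chr4:130037796-134070448) 35.8% and 14.8%, and SEL1L to FLRT2 (chr14:82000198-85996487) 26.8% and 8.68%. CTNNA2, an alpha-catenin of neurons, to SUCLG1 (chr2:80875987-84650651) had 34.5% and 11.4%. The exception in size was NUDT12 to EFNA5 (chr5:102898492-106712594), where xxChIP H1.2 covered 15.2% and xxChIP H1.5 12.2% against 10.0% and 11.9% in xChIP, although its GC content of 35% matched that of the others. This desert lies in a stretch of 5q, described below, whose deserts ranged from 7.53% to 17.8% in xxChIP H1.2.

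The 5 deserts with the highest ratio of xxChIP to xChIP, as the mean over both isotypes, were named by that ratio, so their values describe them and test nothing. The first was CA10 to KIF2B (chr17:50237378-51900287), with 6.80% in xChIP H1.2, 8.25% in xChIP H1.5, 50.2% in xxChIP H1.2 and 36.3% in xxChIP H1.5. It was followed by TSHZ3 to ZNF507, ZP4 to CHRM3, PDGFD to CASP12 and FERMT1 to BMP2. The desert between TSHZ3 and ZNF507, both zinc finger genes (chr19:31840343-32836499), stood out by a GC content of 43.5%, at which xxChIP H1.2 still covered 42.2% and xxChIP H1.5 32.7%, against 7.84% and 8.57% in xChIP. ZP4 to CHRM3 (chr1:238054223-239549864) had 44.7% and 35.1% in xxChIP H1.2 and H1.5, and PDGFD to CASP12 (chr11:104035108-104756444) had 33.2% and 30.6%. FERMT1 to BMP2, a bone morphogenetic protein gene (chr20:6103862-6748332), had the highest share of all deserts in xxChIP H1.5, 50.5%, with 50.7% in xxChIP H1.2. The highest share in xxChIP H1.2 was 58.0%, between TRIB1 and LRATD2 on 8q (chr8:126450646-127564687), where xxChIP H1.5 covered 48.4%, xChIP H1.2 23.4% and xChIP H1.5 20.6%. Only 17 xxChIP H1.2 peaks were centred in this desert, the longest of 307527 bp. The copy number of the region was not analysed, and its part in these values was not tested.

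The 5 deserts with the lowest ratio, named in the same way, were covered mainly by xChIP peaks. Between CD83, a marker of mature dendritic cells, and JARID2, a partner of Polycomb repressive complex 2 (chr6:14137150-15246299), xChIP H1.2 covered 49.7%, xChIP H1.5 19.4%, xxChIP H1.2 8.51% and xxChIP H1.5 8.43%. A single xChIP H1.2 peak of 286894 bp began inside the desert and ran past its border with JARID2. Between SOX4, a transcription factor of progenitor cells, and PRL (chr6:21598851-22287472), xChIP H1.2 covered 53.9% and xxChIP H1.2 14.7%. TYW1 to AUTS2 (chr7:66704502-69063281) had the highest xChIP H1.2 share of all deserts, 58.5%, with 24.3% in xChIP H1.5 and 16.5% and 14.8% in the xxChIP lists of H1.2 and H1.5. UBE2V2 to CLXN (chr8:48977269-49623347) had 39.3%, 17.3%, 10.8% and 9.78%. These 4 had a GC content between 40.8% and 43.9%, above the desert median of 37.8%. The remaining one, SMN2 to SERF1A (chr5:69374350-70196495), had 26.2%, 35.3%, 12.3% and 9.13%; it lies among near-identical copies of the SMN and SERF1 genes, and only uniquely placed reads were kept, so its values are uncertain. The highest xChIP H1.5 share, 38.9%, was found between ENSG00000271793, a gene without a symbol, and the serotonin receptor gene HTR1E (chr6:86388452-87647245), where xChIP H1.2 covered 43.7% and the xxChIP lists 24.6% and 26.2%.

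**Figure D4:**
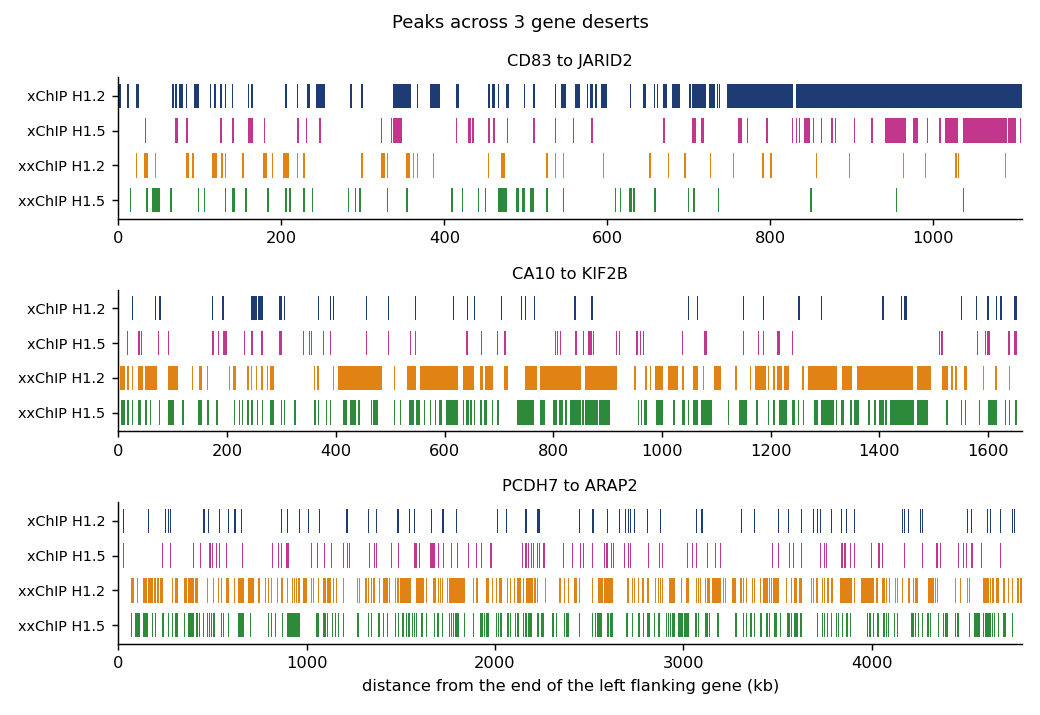
Peaks of the 4 lists (bars, to scale) across 3 gene deserts, by distance from the left flanking gene (kb). Peaks are cut at the borders of the desert. In CD83 to JARID2 the part inside the desert of a peak of 286894 bp fills the right of the xChIP H1.2 row. In CA10 to KIF2B xxChIP H1.2 covers 50.2% in wide blocks, and in PCDH7 to ARAP2 its 40.4% is spread over 273 peaks.

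A desert outside the naming rule, chosen after its values were seen, was the least covered of all in both xxChIP lists. It lies between IRF8, a transcription factor of monocytes and dendritic cells, and FOXF1 (chr16:85956213-86544132), and had 5.60% in xxChIP H1.2 and 4.40% in xxChIP H1.5. xChIP H1.2 covered 13.5% of it and xChIP H1.5 5.43%, and its GC content was 48.8%.

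Within deserts the coverage was uneven. Over the 534 deserts with at least 5 windows of 100 kb, the median standard deviation between windows of a desert was 7.79 percentage points in xChIP H1.2, 7.17 in xChIP H1.5, 11.8 in xxChIP H1.2 and 10.1 in xxChIP H1.5. The standard deviation between the means of deserts, each over several windows, was 6.55, 4.83, 8.74 and 7.59 points. Of the 6315 windows, 608 were covered over at least 50% in xxChIP H1.2 and 83 in xChIP H1.2, and 10 and 52 held no peak.

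The deserts of some chromosome regions departed together from the rest in xxChIP. On 5q the 34 deserts had medians of 15.3% in xxChIP H1.2 and 13.7% in xxChIP H1.5, against 27.3% and 23% in the 19 deserts of 5p. The corresponding xChIP medians were alike, with 15.8% and 15.5% on 5q and 15.0% and 14.0% on 5p. On 9p the xxChIP medians were 17.4% and 15.8%, against 27.4% and 24.7% on 9q, and on 11p they were 17.6% and 16.4%, against 29.3% and 24.1% on 11q. Chromosome 8 was low on both arms, with 16.1% and 15.0% on 8p and 18.7% and 17.4% on 8q. The median GC content of the deserts was 37.3% on 5q and 38.4% on 5p, 36.8% on 9p and 38.9% on 9q, 36.2% on 11p and 39.2% on 11q, and 40.1% on 8p and 37.8% on 8q. The Input samples and the copy number of these regions were not analysed here, and the part of copy number and of GC content in these values was not tested. In xChIP H1.5 the lowest arms were 16p at 7.34%, 16q at 7.78% and 10p at 9.74%, among arms with 5 deserts or more. These arms were low in xxChIP H1.5 too, at 16.4%, 16.6% and 16.1%, as was 21q at 15.2%. In xxChIP H1.2 they stood at 21.0%, 23.7% and 20.0%, and 21q at 21.6%.

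Taken in order along the chromosome, many low deserts of 3p, 5q and 9p lay next to each other, in stretches that were chosen after the values were seen. On chromosome 5, the 24 deserts from ANKRD55 to HINT1 lay between 7.53% and 17.8% in xxChIP H1.2, with a median of 13.3%, whereas the other 29 deserts of the chromosome had a median of 25.9%. The last desert before the stretch, ISL1 to PELO, had 25.2%, and the first one after it, TRPC7 to SPOCK1, had 32.4%. In xChIP H1.2 the medians were 14.8% inside and 15.3% outside, and in xChIP H1.5 they were 14.7% and 15.4%. On chromosome 3, the 14 deserts from OXSM to FRG2C had a median of 14.1% in xxChIP H1.2 against 28.6% in the other 38, and a range of 10.1% to 21.6%. They lay between ZNF385D to UBE2E2 with 21.3% and ROBO2 to ROBO1 with 27.9%, so the highest desert of the stretch, ARPP21 to STAC, overlapped the one before it. The median GC content was 39% inside and 36.8% outside. In xChIP the 3p stretch was also the lower, with 14.5% against 17.4% for H1.2 and 13.8% against 18.4% for H1.5. On chromosome 9, the 7 deserts from MPDZ to ACO1 had a median of 15.4% and a range of 12.0% to 20.3%, against a median of 26.9% in the other 18, and lay between PTPRD to TYRP1 with 30.0% and ANXA1 to RORB with 44.2%. Here too the xChIP medians were lower inside, at 11.4% against 13.6% for H1.2 and 12.6% against 14.6% for H1.5. The xxChIP H1.5 medians of the 5q, 3p and 9p stretches were 12.1%, 11.9% and 15.7% inside and 20.4%, 26.7% and 25.2% outside.

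The lower xxChIP shares were not limited to deserts. In the 5q stretch, 72 windows of 500 kb without desert sequence had a median of 10.2% in xxChIP H1.2, against 13.8% in 114 such windows elsewhere on the chromosome. In the 3p stretch these medians were 10.5% and 18.6%, and in the 9p stretch 11.4% and 17.1%. The xChIP H1.2 medians of the same windows were 15.4% and 28.5% on chromosome 5, 26.8% and 28.4% on chromosome 3, and 15.5% and 33.3% on chromosome 9. Outside deserts the windows of the 5q and 9p stretches were thus lower in xChIP H1.2 as well. The median GC content of these windows was 38.5% and 42.5% on chromosome 5, and 38.6% and 41.8% on chromosome 9. On chromosome 3 it was 42% and 39.7%. The windows were therefore not alike in GC content, and its part in these shares was not tested. The 45 deserts of the 3 stretches, out of 584 deserts, included 17 of the 63 with the lower xxChIP share for both isotypes. The stretches were chosen after the xxChIP values were seen, so this count describes them and tests nothing. Without the 45 deserts, Spearman's rho of GC content with the covered share was -0.463 in xxChIP H1.2 and -0.355 in xxChIP H1.5.

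**Figure D5:**
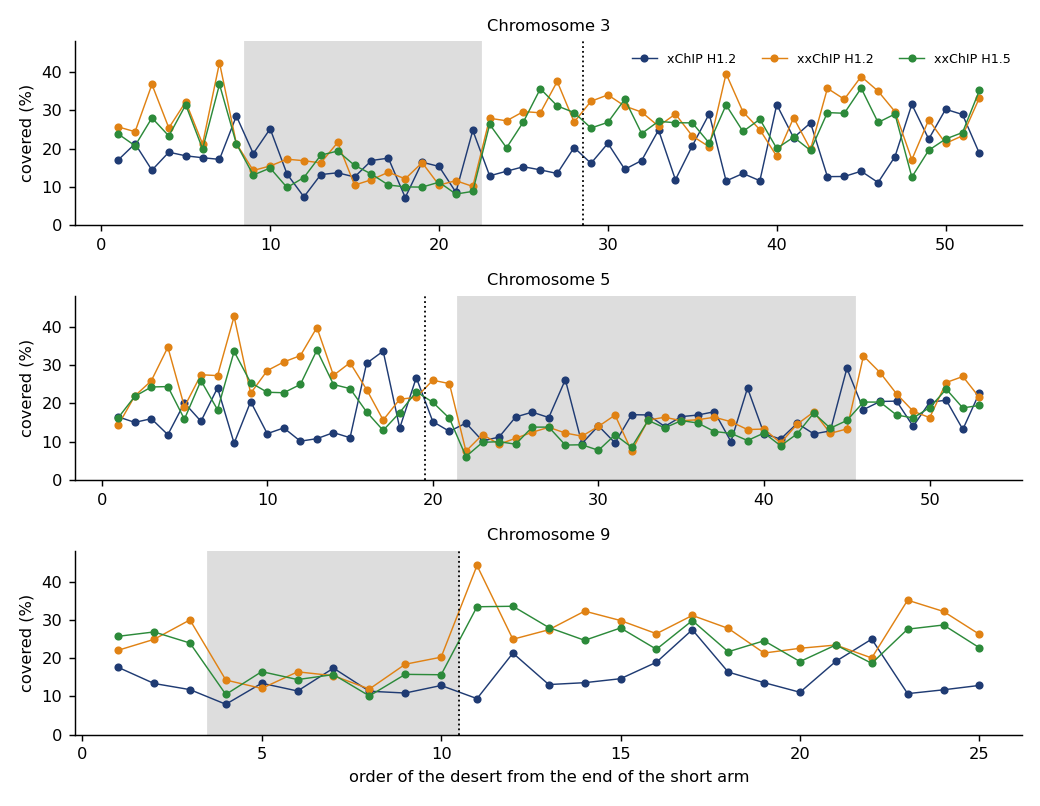
Share of each gene desert covered by peaks (%) for the deserts of chromosomes 3, 5 and 9 in their order along the chromosome, in xChIP H1.2, xxChIP H1.2 and xxChIP H1.5, with the centromere as a dotted line and the 3 stretches shaded. The xxChIP H1.2 median is 14.1%, 13.3% and 15.4% in the shaded deserts of the 3 chromosomes and 28.6%, 25.9% and 26.9% in their other deserts.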

How the data were processed

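Paired-end reads of 3 replicates per combination were aligned by the authors to hg19 with Bowtie2, with up to 2 mismatches and only unique placements kept. MUSIC, with its defaults, called enriched regions in each replicate, and the 3 sets were merged into 1 list. The deposited values are peak start and end positions with no score. Merging can lengthen peaks, and repeats without uniquely placed reads cannot hold a peak, so both steps can move a covered share. Copy number was not analysed here.

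Deserts, GC content and sequences were taken from GRCh37, whose primary sequence is that of hg19, with 19229 protein-coding genes of GENCODE v44 lifted to GRCh37 on the 22 autosomes. A named desert is given by its flanking genes. Named were the 10 longest, the 5 highest and 5 lowest in the ratio of xxChIP to xChIP, the highest of each list, and the longest 3 beside each list of flanking genes. Background windows of 500 kb had at least 80% known bases. Python 3.11.15, numpy 2.4.6, pandas 2.3.3 and scipy 1.17.1 were used, and the interval code was tested on simulated data. No test was possible with 1 merged list per group. The members and the lists of flanking genes were chosen with earlier results of these data known. The longest xChIP H1.2 peak in a desert is not reported here.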

Additional observations from a re-analysis of the deposited data

Results flagged for a closer look

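The share of the desert sequence under peaks divided by the autosomal share lay on opposite sides of 1 in the protocols, for both isotypes: 0.572 in xChIP H1.2 and 0.911 in xChIP H1.5, but 1.35 in xxChIP H1.2 and 1.36 in xxChIP H1.5. The merged lists hold no replicates, so the difference was not tested.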

How the results depend on the processing

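Of 168 values from 13 alternative settings, 44 were ratios or differences, and these kept their side of 1 or their sign. The counts of H1.2 against H1.5 did not always keep their balance: it turned from 81 higher and 19 lower to 12 and 30 in xChIP with lncRNA genes bounding deserts, and from 28 and 4 to 11 and 13 in xxChIP without peaks of 20 kb or more. A median or ratio was taken as unmoved within a 95% interval that treats each desert as 1 trial, and a count within 1.5 times; 113 values were unmoved, among them all those without assembly gaps of 50 bp or more, without 50 kb beside each gene, without peaks under 1 kb, without chromosomes 10 and 16, and with windows of 50 kb. Medians below are for xChIP H1.2, xxChIP H1.2 and xxChIP H1.5, and counts give higher and lower for xxChIP over xChIP H1.2, the same for H1.5, xChIP H1.2 over H1.5, and xxChIP H1.2 over H1.5.

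With deserts of 1 Mb or more (254) the medians were 13.7%, 28.7% and 25.0%, and the counts 180 and 7, 153 and 5, 18 and 8, and 7 and 0. With deserts of 250 kb or more (1128) they were 17.0%, 24.1% and 21.3%, and 504 and 190, 487 and 115, 291 and 43, and 119 and 26. With lncRNA genes also bounding deserts (224) they were 13.2%, 29.3% and 24.7%, and 164 and 6, 122 and 8, 12 and 30, and in the last comparison 1 lower. These counts move partly because the number of deserts differs. A fold of 2 gave 204 and 20, 128 and 4, 31 and 2, and 1 and 0. Without peaks of 20 kb or more the medians were 13.8%, 21.1% and 20.4%, with 14.3% in xChIP H1.5, the ratio of desert to autosomal share in xChIP H1.2 was 0.792, and the counts were 21 lower for xxChIP over xChIP H1.2, 52 and 29 for xChIP, and 11 and 13 for xxChIP. Counted as peak centres per Mb, the ratios were 0.853 in xChIP H1.2, 1.09 in xxChIP H1.2 and 1.15 in xxChIP H1.5. A pseudocount of 0.1 points gave 31 deserts lower in xChIP H1.2 than in xChIP H1.5. Leaving out the 3 stretches, a choice made after seeing the data, gave 12 deserts lower in xxChIP H1.5. For the other values the cause was not tested. The share of background windows past the fold was computed only with the main fold, the main pseudocount and all peaks. For the counts with a fold of 2, without peaks of 20 kb or more, or with a pseudocount of 0.1 points, the distance from the background is therefore unknown.

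No paired analysis was possible because each list merges its replicates, and leaving out replicates was not run for the same reason. Depth is unknown, and a base without a peak cannot be told from one with too few reads.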

Other observations

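The X chromosome lay outside the rule for deserts. Its 36 intervals that met the same length and gap limits had median covered shares of 10.5% in xChIP H1.2, 9.37% in xChIP H1.5, 19.3% in xxChIP H1.2 and 15.6% in xxChIP H1.5. Over the whole X chromosome these shares were 14.7%, 10.2%, 14.6% and 12.1%, so its intervals were lower than the autosomal deserts in every list and had the same order of protocols.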
